A study of Mus musculus with 31 samples.

Results

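The Hox genes of the mouse spinal cord ependymal cell were followed through the bulk RNA, single-cell RNA and single-cell ATAC data of 1 study. Members were all symbols of the form Hoxa, Hoxb, Hoxc or Hoxd with a paralog number from 1 to 13, and the ATAC peaks inside or within 2 kb of these genes. The mouse has 39 such genes. Of these, 32 had a row among the 16301 genes of the bulk table, and all 39 stood among the 27998 genes of the single-cell matrix, where 34 had at least 1 unique molecular identifier (UMI, a count of 1 captured transcript). The peaks were 58 of 96670. Hoxa13, Hoxc11, Hoxc12, Hoxc13, Hoxd1, Hoxd12 and Hoxd13 have no row in the bulk table used here, and Hoxa13, Hoxc12, Hoxc13, Hoxd12 and Hoxd13 had no UMI.

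Hox genes encode homeodomain transcription factors that give cells their position along the head-to-tail axis. Within each cluster the genes stand on the chromosome in the order of their paralog numbers, with low numbers expressed toward the hindbrain and neck and the highest numbers toward the lumbar and sacral cord. The pattern laid down in the embryo is kept in adult cells, where Trithorax proteins hold genes open and Polycomb proteins hold them silent. Hox proteins bind DNA with cofactors of the Pbx and Meis families, and retinoic acid and Cdx factors set their early domains.

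The study concerned ependymal cells, the ciliated cells around the central canal, and asked what they become with and without Olig2, which drives cells toward the oligodendrocyte lineage. Mice were of the C57BL/6 background and of 2 genotypes, Foxj1-tdT (here "control"; Foxj1 is an ependymal gene and tdT a red reporter) and Foxj1-Olig2-tdT (here "Olig2"). Bulk RNA came from 12 Smart-seq2 libraries of about 1k ependymal cells each, taken by tissue digestion and flow cytometry, with 2 libraries per genotype for each of Uninj (no injury), 1 dpi and 5 dpi, where dpi is taken to mean days after injury. Single-cell RNA covered both genotypes without injury and at 2 and 4 weeks, and single-cell ATAC was made on 1 sample, the non-neuronal cells of uninjured cord. The labels name neither the allele that drives Olig2, nor the age or number of animals per library, nor the level of the cord sampled. The 12 ATAC libraries made from bulk cells are not used here.

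The DNA just before the start of 6 members is shown, since the expression and accessibility results below turn on them. Hoxa7 and Hoxb8 had the most single-cell UMIs, and their starts lay in the broadest Hox peaks of their clusters. Hoxd10, Hoxd9, Hoxa10 and Hoxa11 differed between bulk groups, and among these the Hoxa11 start lay in no peak. Each sequence holds the 250 bases before the start, read 5' to 3' on the gene's own strand, from RefSeq on GRCm38.p6. Capitals mark TGATNNAT (a site type of Hox with Pbx), TTTATG (a site type of high-numbered Hox and Cdx proteins) or CCAAT, on either strand.
Hoxa7 (chr6:52218574-52218823, minus strand): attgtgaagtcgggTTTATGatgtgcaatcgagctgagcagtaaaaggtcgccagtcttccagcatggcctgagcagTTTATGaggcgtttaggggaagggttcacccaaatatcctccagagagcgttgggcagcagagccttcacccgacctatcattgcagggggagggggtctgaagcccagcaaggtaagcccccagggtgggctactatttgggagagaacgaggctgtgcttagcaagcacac
Hoxb8 (chr11:96281655-96281904, plus strand): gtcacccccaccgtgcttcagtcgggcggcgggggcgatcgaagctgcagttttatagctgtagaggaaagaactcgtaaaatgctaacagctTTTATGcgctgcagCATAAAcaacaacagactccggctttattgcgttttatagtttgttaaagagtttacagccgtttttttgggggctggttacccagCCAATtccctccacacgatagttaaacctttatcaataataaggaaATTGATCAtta
Hoxd10 (chr2:74691641-74691890, plus strand): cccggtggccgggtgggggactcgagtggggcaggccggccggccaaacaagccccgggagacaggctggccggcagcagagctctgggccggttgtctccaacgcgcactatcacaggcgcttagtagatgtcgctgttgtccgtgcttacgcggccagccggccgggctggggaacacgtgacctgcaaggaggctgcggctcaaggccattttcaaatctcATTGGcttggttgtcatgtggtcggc
Hoxd9 (chr2:74697513-74697762, plus strand): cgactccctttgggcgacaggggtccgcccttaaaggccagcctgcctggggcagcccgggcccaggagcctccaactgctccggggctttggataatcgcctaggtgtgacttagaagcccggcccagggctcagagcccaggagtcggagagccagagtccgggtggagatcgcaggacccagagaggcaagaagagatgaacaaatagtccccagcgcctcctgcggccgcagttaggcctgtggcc
Hoxa10, downstream start (chr6:52234940-52235189, minus strand): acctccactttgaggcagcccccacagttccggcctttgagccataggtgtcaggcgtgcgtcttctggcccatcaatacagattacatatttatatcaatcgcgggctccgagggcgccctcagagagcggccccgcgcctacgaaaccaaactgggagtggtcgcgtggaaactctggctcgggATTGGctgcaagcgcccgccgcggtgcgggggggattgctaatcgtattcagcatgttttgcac
Hoxa11 (chr6:52245811-52246060, minus strand): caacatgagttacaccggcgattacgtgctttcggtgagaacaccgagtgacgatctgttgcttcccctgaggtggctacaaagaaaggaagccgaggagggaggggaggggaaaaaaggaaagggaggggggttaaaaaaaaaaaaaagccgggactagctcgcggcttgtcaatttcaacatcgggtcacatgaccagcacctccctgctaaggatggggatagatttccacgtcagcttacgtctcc

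RefSeq's promoter table had an entry for 22 of the 39 members, with 24 starts in all. TGATNNAT stood in 4 of these starts (16.7%, against 7.69% of 32841 starts of all genes), in Hoxa2, Hoxb1, Hoxb8 and Hoxd11. TTTATG stood in 5 (20.8% against 10.8%), in Hoxa7, Hoxb8, Hoxd3, Hoxd4 and Hoxd11. CCAAT stood in 14 (58.3% against 33.9%). A direct repeat of AGGTCA with 5 bases between, a retinoic acid receptor site type, stood in 0 of them and in 0.00913% of all starts. The Hox starts held a median of 12.5 CpG dinucleotides, against 6 over all starts. Hoxb8 carried TGATNNAT, TTTATG and CCAAT within its 250 bases. A match is a description of the letters and does not show that a factor binds.

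Before the results, 1 pair of bulk libraries needs naming. The 2 uninjured control libraries were near copies of each other, with a Pearson correlation of 0.989 over all genes tested, while the pairs of the other 5 groups lay between 0.864 and 0.928. Over the Hox genes they differed by a mean of 0.193 on the log2 scale, against 0.556 to 1.09 in the other groups. The values hold no read counts, so sampling noise could not be assessed, and each count of called Hox genes is therefore given both with the pair as 2 libraries and as 1. In the uninjured Olig2 pair, 412 genes were listed at 0 in 1 library and at 50 or above in the other, against 5 genes in the uninjured controls and 56 to 267 in the other 4 groups, so a listing of 0 does not show that a transcript was absent. Since the labels leave unsaid whether replicates were separate animals, the p-values speak only for the spread among these libraries, which could be technical. Olig2 itself was between 1690.3 and 3960.9 normalised counts in the 6 Olig2 libraries and between 2.2 and 195.2 in the 6 controls. All 10 ependymal markers had a row and none was at 0 throughout a group, but their summed share of a library's values moved with injury. It was 0.849% and 0.865% in the uninjured controls, 0.195% to 0.304% in the injured ones, 0.969% and 1.01% in uninjured Olig2, and then 0.437% and 0.511% (1 dpi) and 0.0529% and 0.073% (5 dpi).

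The bulk libraries held Hox transcripts of all 4 clusters at paralog numbers from 1 to 13. All 32 genes passed the filter on low values (at least 10 in at least 2 libraries), and each library had between 27 and 31 of them above 0. The values of all Hox genes summed to 11762.3 and 12421.4 normalised counts in the uninjured controls and to 11170.1 and 9337.8 in uninjured Olig2. The sums were lower in most injured libraries, at 7564.5 and 6814 (control, 1 dpi), 7934 and 10308.7 (control, 5 dpi), 7107 and 7627.7 (Olig2, 1 dpi) and 7822.2 and 8563.4 (Olig2, 5 dpi). No test was made on these sums. In bulk RNA, fewer cells of a type and less RNA per cell cannot be told apart.

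**Figure D1:**
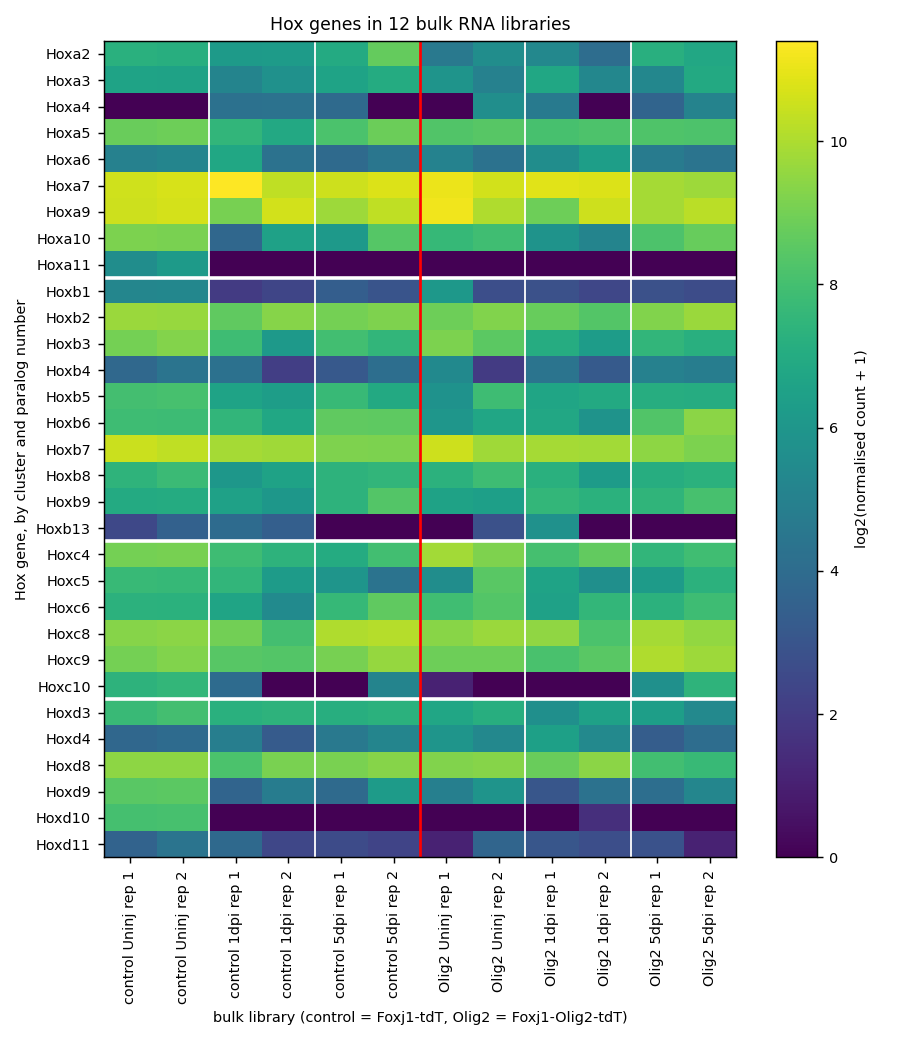
Normalised counts of 31 Hox genes (rows, ordered by cluster and paralog number) in the 12 bulk libraries (columns, by genotype and time), as log2(normalised count + 1). Hoxa7 and Hoxb7 were at 566.9 or above in all libraries, while Hoxd10 and Hoxa11 stood high in the 2 uninjured control libraries and at or near 0 in the other 10.

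The share of the Hox sum held by paralogs 10 to 13 separated the uninjured controls from every other library. These paralogs, which mark the hind part of the cord, summed to 1057.7 and 1115.1 normalised counts in the uninjured controls, or 8.99% and 8.98% of all Hox values. They summed to 202.9 and 257.7 in uninjured Olig2 (1.82% and 2.76%). In the injured controls the sums were 56.4 and 105.3 (0.746% and 1.55%, 1 dpi) and 75.8 and 372.7 (0.955% and 3.62%, 5 dpi). In the injured Olig2 libraries they were 116.6 and 41.4 (1.64% and 0.543%, 1 dpi) and 357.8 and 604.2 (4.57% and 7.06%, 5 dpi). The near-identical control pair therefore lay above all 10 other libraries, and Olig2 at 5 dpi came next. Such sums add genes of different transcript length, so they compare libraries and not paralogs.

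Without injury, 4 Hox genes fell in Olig2 relative to control and 0 rose. Hoxd10, which helps pattern lumbar motor neurons and hindlimb muscle supply, was 261.6 and 267.5 normalised counts in the controls and was listed at 0 in both Olig2 libraries (limma, adjusted p = 0.000983). Hoxa11, known for its part in limb, kidney and uterus, was 46.6 and 73.2 against a listing of 0 in both (adjusted p = 0.00285). In both genes the groups did not overlap, and no fold is given against a group listed at 0. Hoxc10, a paralog partner of Hoxd10 in the lumbar cord, was 167.1 and 184.7 in the controls and 1.1 and 0 in Olig2. Its change was -6.93 ± 1.71 (log2 of value + 1, SE; adjusted p = 0.0371).

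These 4 of 32 genes stood against a background of 7.79% of all 15811 genes called in the contrast, with 3.07% lower and 4.72% higher. The median Hox difference was -0.547 on the log2 scale, against 0 over all genes tested. In total 7 Hox genes had an unadjusted p under 0.05. Among those not called, Hoxd9 was 356.4 and 366.4 against 29.5 and 58.3 (-3.09, adjusted p = 0.0782). Hoxa2 was 151.4 and 141.8 against 23.2 and 47.2 (-2.11, adjusted p = 0.109), and Hoxb6 was 231.6 and 224.4 against 63.4 and 106.1 (-1.46, adjusted p = 0.126). With the control pair as 1 library, 3 genes were called, Hoxa11 and Hoxd10 among them, and Hoxc10 was not, against a background of 1.47%. Hoxd10 and Hoxa11 passed the filter only through these 2 libraries, the group in which they were high, so they were not tested when either was left out. With no filter on low values both stayed called, but those calls rest on the same 2 libraries. The 4 genes called include both, and their p-values are not taken as support. Without either of these libraries 0 Hox genes were called in the contrast.

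**Figure D2:**
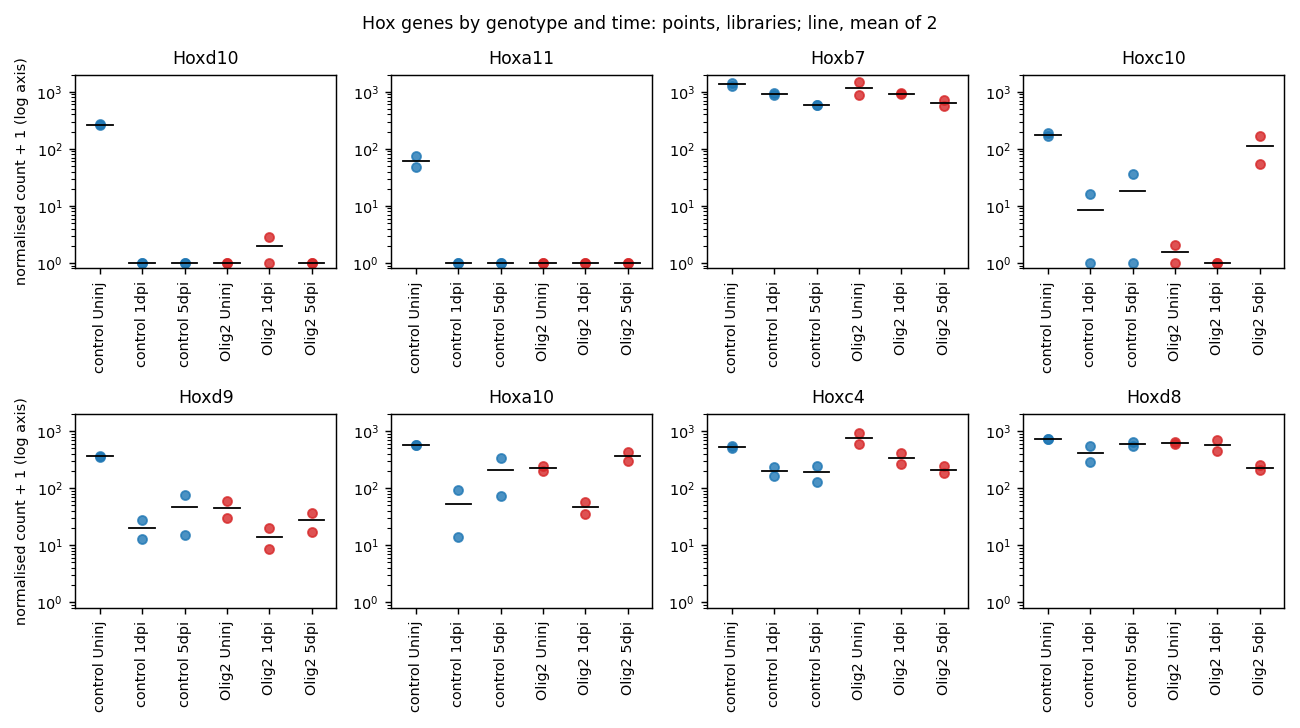
Normalised counts plus 1 (log axis) of 8 Hox genes in the 6 bulk groups, with 1 point per library and a line at the mean of 2 libraries, in blue for control and red for Olig2. Hoxd10 was above 261 only in the uninjured controls, whereas Hoxd8 stayed between 203.8 and 715.2 in all 12 libraries.

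At 1 dpi the genotypes did not differ in any Hox gene that passed the test. None of 32 was called by limma (background 1.84%, with 1.29% higher and 0.55% lower) with the pair as 2 libraries or as 1, 3 had an unadjusted p under 0.05, and the median difference was 0.0134. At 5 dpi, 1 gene fell in Olig2, Hoxd8, whose product acts in the trunk and cord (background 9.23%, with 5.88% lower and 3.36% higher). Hoxd8 was 553.5 and 636.7 normalised counts in control and 247.9 and 203.8 in Olig2, a change of -1.40 ± 0.34 (adjusted p = 0.0315). The groups did not overlap, and the median over the 32 genes was -0.0489. With the uninjured control pair as 1 library, which enters the shared spread, 0 Hox genes were called at 5 dpi while 4 had passed an unadjusted p under 0.05 before. Hoxd8 was also not called without either uninjured control library or without any 1 library of the 5 dpi groups (adjusted p up to 0.186), while without either 1 dpi control library 2 Hox genes were called, Hoxd8 and Hoxa7. Averaged over the 3 times, 3 genes were lower in Olig2 (background 7%, with 3.39% lower and 3.61% higher), namely Hoxd10 (adjusted p = 0.0220), Hoxa11 (adjusted p = 0.0372) and Hoxd3 (-1.16 ± 0.30, adjusted p = 0.0476). Hoxd3, a gene of the neck region, was 213.4 and 256.1, 148 and 163.3, and 142.9 and 156.4 in control over the 3 times, and 107.1 and 139.9, 49.7 and 90.7, and 82.1 and 40.4 in Olig2. Its groups did not overlap at any of the 3 times, though the share of all genes without overlap was not counted. For Hoxd10 and Hoxa11 the average holds only the uninjured difference, since both genotypes lay at 0 to 1.9 at 1 dpi and 5 dpi. Both genes passed the filter on low values only through the uninjured controls, so their p-values here are not taken as support. With the pair as 1 library, 0 were called in this average, against a background of 2.06%. The count was also 0 without either uninjured control library or Olig2 5 dpi replicate 2, and 1 without either 1 dpi control, control 5 dpi replicate 2 or Olig2 Uninj replicate 1.

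In the controls, 9 of 32 Hox genes fell and 0 rose at 1 dpi relative to Uninj. The background was 27.4% of all genes called, 12% lower and 15.4% higher, and 9 of 32 lower stood above the lower share. The median Hox change was -0.909, against 0 over all genes. Hoxd10 went from 261.6 and 267.5 to a listing of 0 in both libraries (adjusted p = 0.000213) and Hoxa11 from 46.6 and 73.2 to 0 in both (adjusted p = 0.000732). The 9 include these genes, which passed the filter on low values only through the uninjured controls, the group in which they were high. A group listed at 0 in both libraries also adds no spread, so their p-values are not taken as support. Hoxd9, which shares lumbar and limb roles with its neighbours, went from 356.4 and 366.4 to 11.7 and 26.7 (-4.27 ± 0.95, adjusted p = 0.00878). Hoxa10, a regulator of lumbar identity, went from 566.7 and 559 to 12.8 and 90.9 (-3.98 ± 0.90, adjusted p = 0.00958). Neither gene's groups overlapped.

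A further 4 genes called at 1 dpi lay mostly nearer the head end of their clusters. Hoxa5, which acts in lung and in the motor neurons of the diaphragm, went from 441.7 and 467.5 to 179.5 and 117.8 (-1.64 ± 0.34, adjusted p = 0.00682). Hoxb3, a gene of the hindbrain and upper cord, went from 512.3 and 630.2 to 230.6 and 68.7 (-2.16 ± 0.56, adjusted p = 0.0185). Hoxc4, a cervical gene, went from 511.5 and 538.2 to 229.1 and 162.7 (-1.44 ± 0.42, adjusted p = 0.0295). Hoxc10 went from 167.1 and 184.7 to 14.9 and 0 (-5.47 ± 1.71, adjusted p = 0.0389). The uninjured libraries lay above the injured ones in each of these genes, and the share of all genes where this held was not counted. With the control pair as 1 library, 3 of the 9 were called, Hoxa11 and Hoxd10 among them, against a background of 11%. Without either uninjured control library, where Hoxa11 and Hoxd10 were not tested, 1 Hox gene was called. The ependymal marker share also fell from at least 0.849% to at most 0.301% between these groups, and its part in the Hox changes was not tested. Replicate 1 of the 1 dpi controls also held 0.11% of its values in the 5 fibroblast markers with a row, against 0.00531% in replicate 2.

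At 5 dpi, 5 Hox genes were lower in the controls than in the uninjured controls and 0 were higher (background 23%, with 9.21% lower and 13.8% higher). Hoxd10 and Hoxa11 were again listed at 0 in both libraries (adjusted p = 0.000301 and 0.00103). The 5 include both genes, which passed the filter only through the uninjured controls, so their p-values are not taken as support. Hoxd9 was 14.3 and 75.2 (-3.41 ± 0.95, adjusted p = 0.0275) and Hoxc4 was 129.3 and 245.4 (-1.55 ± 0.42, adjusted p = 0.0245). Hoxb7, a trunk gene, went from 1420.9 and 1274.7 to 578.6 and 575.1 (-1.22 ± 0.26, adjusted p = 0.00786). The median Hox change was -0.603. Hoxa10 was not called at this time and its 2 libraries lay far apart, at 70.7 and 334.1. With the pair as 1 library, the calls at 5 dpi were Hoxa11 and Hoxd10, against a background of 8.18%. Without either uninjured control library 0 were called, and 3 without replicate 1 of the 5 dpi controls. Both times were set against the same uninjured libraries, so the 2 results share their reference.

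In the Olig2 libraries, 1 of 32 Hox genes fell at 1 dpi relative to Uninj (background 8.09%, with 2.16% lower and 5.93% higher). This was Hoxb3, from 565.5 and 367.4 to 133.9 and 78.1 (-2.14 ± 0.56, adjusted p = 0.0460), with a median over the Hox genes of -0.346. With the control pair as 1 library, which changes only the spread in this contrast, it was not called, nor was it without either library of any group but the 1 dpi controls (adjusted p up to 0.192). Without Olig2 Uninj replicate 2, Hoxb3 had an adjusted p of 0.0528 and the 1 Hox gene called was Hoxb1.

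At 5 dpi, 4 Hox genes rose and 4 fell in Olig2, against a background of 31.2% of all genes called (17.2% higher and 14% lower). The share of Hox genes called was thus below that of all genes, and the median change was -0.133 where all genes had 0.125. Hoxb6, a trunk gene, rose from 63.4 and 106.1 to 313.1 and 684.4 (2.48 ± 0.53, adjusted p = 0.00566). Hoxc9, which sets thoracic motor neuron identity, rose from 471 and 474.7 to 1040.6 and 861 (1.00 ± 0.27, adjusted p = 0.0198). Hoxc10 rose from 1.1 and 0 to 52.5 and 167.6 (6.03 ± 1.71, adjusted p = 0.0227).

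The 4 that fell were listed at 129.3 or above in every library. Hoxc4 went from 910 and 585.5 to 179.4 and 241.2 (-1.81 ± 0.42, adjusted p = 0.00887) and Hoxd8 from 598.4 and 640.1 to 247.9 and 203.8 (-1.46 ± 0.34, adjusted p = 0.00913). Hoxa7, a trunk gene, went from 2158.2 and 1569.7 to 935.1 and 847.4 (-1.05 ± 0.31, adjusted p = 0.0264). Hoxb7 went from 1481.3 and 878.5 to 710.5 and 566.9 (-0.84 ± 0.26, adjusted p = 0.0304). Groups did not overlap in any of the 8 genes, but the share of all genes without overlap was not counted, so this adds nothing to the calls. With the control pair as 1 library, 4 were called higher and 3 lower (background 25.6%). The 8 calls became 3 without Olig2 Uninj replicate 1 and 2 without either Olig2 5 dpi library. The Hoxd sum was 362 and 297.3 in these 5 dpi libraries, below the range of 489.5 to 1637.2 in the other 10. Over the same libraries the ependymal marker share was 0.0529% and 0.073%, the lowest of all groups, and the 6 cycling markers held 0.0852% and 0.179% of values, against at most 0.0387% elsewhere. The part of either in the Hox changes was not tested.

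The interaction, the injury change in Olig2 minus that in control, tests whether the 2 genotypes differed in their change. At 1 dpi it was called for 3 Hox genes, all in the higher direction (background 2.77%, with 0.923% higher and 1.85% lower). Among them were Hoxd10 (adjusted p = 0.00926) and Hoxa11 (adjusted p = 0.0316). At 5 dpi it was called for 4, again all higher (background 7.28%, with 2.64% higher and 4.64% lower), among them Hoxd10 and Hoxa11 at adjusted p = 0.00654 and 0.0163 and Hoxc10 at 0.0257. Hoxd10 and Hoxa11 were listed at 0 in both uninjured Olig2 libraries and at 0 to 1.9 in the injured ones. Their interactions at 5 dpi (8.05 and 5.89) therefore equal the control change with its sign turned and restate the high uninjured control pair. Hoxc10 was 167.1 and 184.7 in control Uninj and 0 and 34.5 in control at 5 dpi, against 1.1 and 0 and then 52.5 and 167.6 in Olig2. Every interaction uses the near-identical control pair, as do the uninjured genotype contrast and both control injury contrasts, so these results are not independent of each other. With the pair as 1 library, 0 genes were called at 1 dpi and 1 at 5 dpi, Hoxd10 (backgrounds 0.234% and 1.4%). Without either uninjured control library 0 were called at both times. Without any 1 library of the 1 dpi groups 1 was called at 1 dpi, and without Olig2 5 dpi replicate 2, 1 at 5 dpi.

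Hoxa9, Hoxb8 and Hoxc8, which had high single-cell levels, were not called in any bulk contrast. Hoxa9, a posterior trunk gene, ranged from 468 to 2259.7 normalised counts, and its pairs at 1 dpi lay far apart, at 536.3 and 1584.9 in control and 468 and 1492.5 in Olig2. Hoxb8, which acts in the dorsal cord and marks the embryonic trunk, was 167.8 and 216.4 in control Uninj, then 64.8 and 92.7 (1 dpi) and 164.4 and 183.5 (5 dpi). In Olig2 it was 158.6 and 230.6, 148.4 and 76.5, and 136.8 and 155.3. Hoxc8, a gene of the brachial cord, was 636.1 and 687.9, 507.4 and 257, and 1049 and 1131.8 in control, and 660 and 822.6, 736.1 and 289.1, and 931.8 and 741.8 in Olig2. The other 14 members in the bulk table were also called in no contrast. They ranged from genes with low values such as Hoxb13 (0 to 52.9), Hoxd11 (1.1 to 20.2) and Hoxa4 (0 to 49) to Hoxb2 (324.1 to 816.6).

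Genes that act with or upstream of Hox genes were counted on lists from textbook knowledge. Of 9 cofactors tested, control fell in 2 at 1 dpi (Pbx4, -1.74, and Pknox2, -2.37) and rose in 1 at 5 dpi. The backgrounds there were 27.4% and 23% of all genes called. Olig2 fell in 2 at 5 dpi, Pbx4 (-2.11) and Pknox2 (-1.48), against a background of 31.2%. At that time 1 cofactor was lower in Olig2 than in control (background 9.23%). In the other 6 contrasts 0 cofactors were called by limma, with 0 to 3 at an unadjusted p under 0.05 in each. Of 28 Polycomb genes, 1 rose and 6 fell in control at 1 dpi, and 4 rose and 3 fell in Olig2 at 5 dpi, where 27.4% and 31.2% of all genes were called. The counts higher and lower were 1 and 2 in control at 5 dpi, 0 and 1 in Olig2 at 1 dpi, 0 and 2 between uninjured genotypes and 1 and 1 between genotypes at 5 dpi. The backgrounds were 23%, 8.09%, 7.79% and 9.23% of all genes called, in the same order. In Olig2 at 5 dpi, Cbx7, a chromobox subunit, went from 711.1 and 723.2 to 65.5 and 57.4 normalised counts (-3.53 ± 0.33, adjusted p = 4.23e-05). Cbx7 was also called lower in Olig2 at 1 dpi (-1.47) and in control at 1 dpi and 5 dpi (-1.08 and -1.90). Ezh2, the methyltransferase of the complex, went from 81.3 and 302.3 to 678.2 and 1010.3 in Olig2 at 5 dpi (2.39 ± 0.57, adjusted p = 0.00997). Without injury, the Polycomb genes Scmh1 (-2.05) and Phc2 (-1.83) were lower in Olig2. Of 12 Trithorax genes and demethylases, 1 fell in control at 1 dpi (Kdm6b, -0.92), against a background of 27.4%. In Olig2 at 5 dpi 1 rose (Ash2l, 0.94) and 1 fell (Kdm6b, -0.83), against a background of 31.2%.

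Of 13 retinoic acid and Cdx genes tested, 2 rose and 2 fell in control at 1 dpi and 3 rose at 5 dpi (backgrounds 27.4% and 23%). In Olig2 2 rose at 1 dpi, and 8 rose and 1 fell at 5 dpi (backgrounds 8.09% and 31.2%). Aldh1a3, an enzyme that makes retinoic acid, went from 27.3 and 31 to 1612.9 and 554.3 normalised counts in the latter (4.98 ± 0.85, adjusted p = 0.00158). It was also called higher in control at 1 dpi (2.83). Among forebrain and midbrain genes, 3 of 17 were tested. Gbx2, a gene of the midbrain and hindbrain boundary, rose from 0 and 2.9 to 490.5 and 830.4 in Olig2 at 5 dpi (8.34). Gbx2 was also called higher in Olig2 at 1 dpi (7.22) and in control at 5 dpi (4.67). Of 13 dorsoventral genes tested, 2 rose and 2 fell in Olig2 at 5 dpi, beside 31.2% of all genes called. Nkx6-1, a ventral progenitor gene, was lower there (-2.88, adjusted p = 9.89e-05) and Gli3, a Hedgehog effector, higher (5.59). Gli3 was also higher in control at 1 dpi and 5 dpi (5.78 and 6.14) and in Olig2 at 1 dpi (5.56). Nkx6-1 was also lower in control at 1 dpi (-1.29). In control, 2 dorsoventral genes rose and 3 fell at 1 dpi, and 2 rose at 5 dpi (backgrounds 27.4% and 23%). With the control pair as 1 library, 6 retinoic acid genes were higher and 1 lower in Olig2 at 5 dpi, and 2 Polycomb genes were higher and 2 lower. In the same contrast 2 dorsoventral genes were higher and 1 lower, 1 Trithorax gene was higher and 0 lower, and 1 cofactor was lower. In control at 1 dpi, 2 cofactors and 1 Polycomb gene were then lower, 1 retinoic acid gene was higher, and 0 Trithorax genes were called. In control at 5 dpi 0 cofactors were called, 1 Polycomb gene was lower and 1 retinoic acid gene higher. Between genotypes, 0 Polycomb genes were called without injury, and at 5 dpi 1 was higher and 1 cofactor lower. In Olig2 at 1 dpi 0 Polycomb genes were called and 2 retinoic acid genes were higher. The backgrounds with the pair as 1 library were 25.6% (Olig2 at 5 dpi), 11% (control at 1 dpi) and 8.18% (control at 5 dpi). They were 1.47% and 5.31% between genotypes without injury and at 5 dpi, and 4.55% in Olig2 at 1 dpi.

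The single-cell RNA matrix showed in which cells Hox transcripts were found. It held 3500 cells, of which the authors' cell table kept 3285, with 716 to 52590 UMIs each (median 5722). Cell names carry 6 library codes, none of which the labels link to a sample, so genotypes and times were not compared and no test was possible. Cells were clustered with the Hox genes left out and named from marker genes, and 7 barcodes occurred under 2 codes. The classes used were 2514 ependymal-like cells, 59 cells like oligodendrocyte progenitors (OPC-like), 126 oligodendrocyte-like cells, 55 cycling cells and, from a clustering of all 3500 cells, 187 myeloid cells. The haemoglobin genes Hbb-bs, Hba-a2 and Hbb-bt led the cluster named cycling, ahead of its cycling genes. In a finer clustering (Leiden resolution 2), 39 cells were named cycling and a separate cluster of 21 cells was led by haemoglobin genes. Clusters of 95, 234 and 202 cells were led by ependymal markers but stayed unnamed, the first for its low UMI counts and the others since microglia or fibroblast genes stood among their leading genes. No doublet caller was run. A level is the sum of UMIs in a class divided by the total of that class on a common scale (CPM), and their intervals are exact Poisson intervals at the 95% level that cover counting error only.

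Ependymal-like cells had the highest summed Hox level of these classes, at 1414 CPM (1396 to 1433; 23010 UMIs). OPC-like cells had 918.9 CPM (830 to 1015; 390 UMIs), cycling cells 925.1 (833.5 to 1024) and oligodendrocyte-like cells 320.4 (291.7 to 351.2; 456 UMIs). Myeloid cells, which come from outside the neural tube, had 53.26 CPM (44.2 to 63.64). Free RNA was not estimated, so whether these UMIs were the cells' own was not tested. Of the 187 myeloid cells, 173 carried code 020. The intervals of the ependymal-like, OPC-like, oligodendrocyte-like and myeloid classes did not overlap each other. When each cell was thinned to 2000 UMIs, 92.55% of ependymal-like cells had a Hox UMI (99.2% before thinning), 82.76% of OPC-like cells (96.61%), 36.8% of oligodendrocyte-like cells (85.71%) and 5.348% of myeloid cells (19.79%). The median depths before thinning were 5735.5, 7771, 9677.5 and 12009 UMIs, so the classes with less Hox RNA were the deeper ones.

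**Figure D3:**
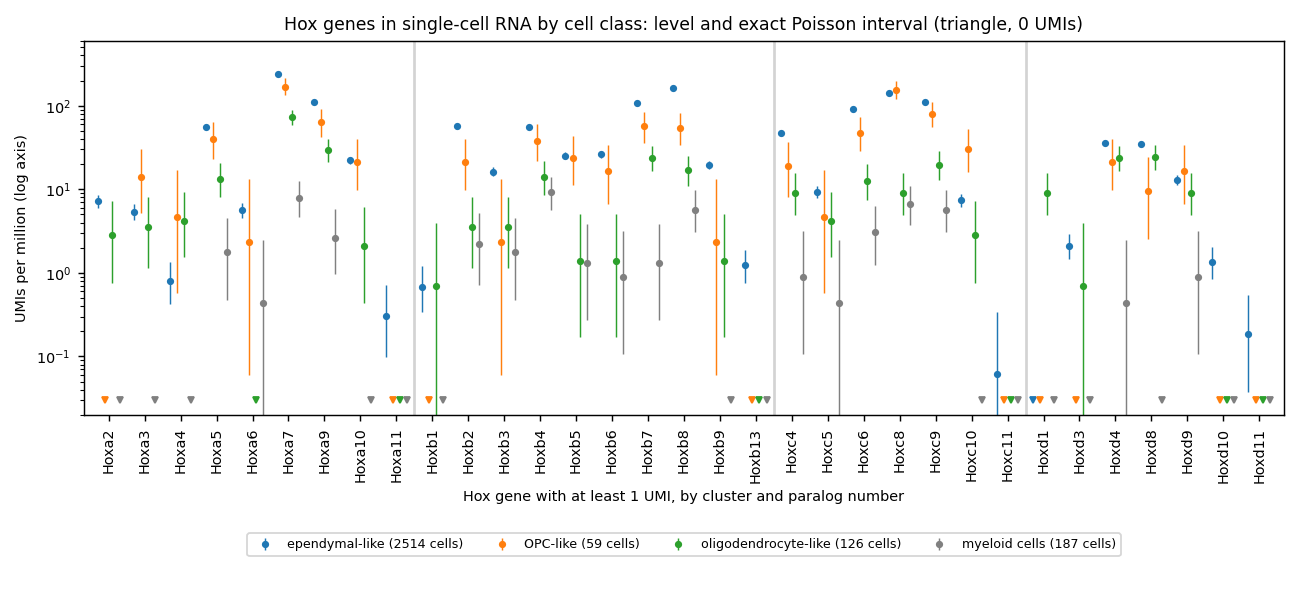
Level of 33 Hox genes with a UMI (along the x axis) in ependymal-like, OPC-like, oligodendrocyte-like and myeloid cells, in CPM (log axis) with exact Poisson intervals, where triangles mark classes with 0 UMIs. Hoxa7, Hoxb8 and Hoxc8 lead in the ependymal-like cells, and the myeloid cells lie lowest for most genes.

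All 3 neural classes shared their emphasis on the middle of the clusters. Paralogs 7 to 9 gave 66.45% of Hox UMIs in ependymal-like, 66.15% in OPC-like and 64.47% in oligodendrocyte-like cells, at 939.8, 607.9 and 206.6 CPM. Paralogs 4 to 6 stood at 352.7, 216.8 and 84.32 CPM and paralogs 1 to 3 at 89, 42.41 and 24.59. Paralogs 10 to 13 stood at 32.76 CPM (30.04 to 35.66) in ependymal-like and 51.84 (32.49 to 78.48) in OPC-like cells, whose intervals overlapped, and at 4.919 (1.978 to 10.13) in oligodendrocyte-like cells. These levels are in CPM without a correction for length. The myeloid shares are not given here, so the emphasis is not shown to be particular to the neural classes.

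The 6 members with most UMIs all came from paralogs 7 to 9. Hoxa7 was 241.4 CPM in ependymal-like, 169.6 in OPC-like, 72.38 in oligodendrocyte-like and 7.923 in myeloid cells. Hoxb8 was 161.6, 54.19, 16.86 and 5.722 in the same order, and Hoxc8 was 140.3, 155.5, 9.135 and 6.603. For Hoxc8 the ependymal-like interval (134.6 to 146.2) lay inside the OPC-like one (120.3 to 197.8), while Hoxb8 was 2.98-fold lower in OPC-like cells. Hoxa9 followed at 112, 63.62, 29.51 and 2.641 CPM, Hoxc9 at 110.1, 80.11, 19.68 and 5.722, and Hoxb7 at 106.9, 56.55, 23.89 and 1.321. After thinning, a Hoxc8 UMI was found in 24.48% of ependymal-like and 29.31% of OPC-like cells, and in 0 of 125 oligodendrocyte-like cells. Before thinning the shares were 52.19%, 59.32% and 7.143%, so the 0 holds only at the thinned depth. The myeloid share was 0.5348% after thinning and 2.139% before.

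The clusters were not lowered alike. Between ependymal-like and OPC-like cells, Hoxb went from 470.2 to 214.4 CPM and from 33.25% to 23.33% of Hox UMIs, while Hoxc went from 404.5 to 336.9 CPM and Hoxa from 451.7 to 320.4. Oligodendrocyte-like cells had 128.6 CPM of Hoxa, 66.76 of Hoxb and 57.62 of Hoxc. Their Hoxd sum of 67.46 CPM lay nearest to the ependymal-like value of 87.71, and Hoxd made up 21.05% of their Hox UMIs against 6.202% in ependymal-like and 5.128% in OPC-like cells. Within Hoxd, Hoxd8 was 34.79 CPM in ependymal-like and 24.59 in oligodendrocyte-like cells, and Hoxd4 was 36.32 and 23.89. Hoxd1, which had no UMI in ependymal-like or OPC-like cells, had 13 UMIs (9.135 CPM) in oligodendrocyte-like cells.

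By a rule of a 2-fold difference with at least 10 expected UMIs, 0 of 15 Hox genes counted were higher and 4 were lower in OPC-like than in ependymal-like cells. The background was 14.2% of all genes higher and 26.2% lower, so the share of Hox genes lower was like that of other genes. These 4 were Hoxb2 (2.68-fold), Hoxb8 (2.98-fold), Hoxc4 (2.49-fold) and Hoxd8 (3.69-fold), and the median Hox log2 difference was -0.78. In oligodendrocyte-like cells 18 of 21 counted genes were lower and 0 higher (background 26.9% lower and 17.2% higher; median -2.21). The 3 not past 2-fold were Hoxd4, Hoxd8 and Hoxd9. Hoxb2 was 16.2-fold lower and Hoxc8 15.4-fold lower, and against OPC-like cells Hoxc8 was 17.02-fold lower (6 of 6 counted genes lower, background 13%). No replicate stands behind these folds, which compare pooled cells of 1 matrix.

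The OPC-like and oligodendrocyte-like cells came almost wholly from 2 library codes, 020 and 073, so the comparison was repeated inside each. The reference there was all clusters led by the ependymal list, and most of its cells were not named ependymal-like. In code 020 the unnamed cluster with microglia genes in the lead gave 233 of 274 reference cells, and in code 073 the unnamed cluster with fibroblast genes among its leading genes gave 192 of 218. In code 020, OPC-like cells had 799 CPM of Hox UMIs and oligodendrocyte-like cells 318.9, and 4 of 8 and 10 of 11 counted genes were lower than in the reference of the same code (backgrounds 29.3% and 30.4%). In code 073 the levels were 899.7 and 320.8 CPM, and 1 of 8 and 12 of 15 were lower (backgrounds 25.8% and 23.1%). The median log2 difference of OPC-like cells from the reference was -0.23 in code 073 and -1.005 in code 020, and since the 2 references differ in kind these were not compared. The 31 and 25 cells named ependymal-like in codes 020 and 073 had 1366 (1182 to 1570) and 1086 (941.8 to 1247) CPM of Hox UMIs.

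Among cells named ependymal-like, levels varied between codes at the posterior end of the clusters. Codes 017, 018, 019 and 072 held 339, 842, 306 and 971 such cells, with summed Hox levels of 1480, 1418, 1341 and 1427 CPM. Paralogs 10 to 13 stood at 60.35 CPM (46.27 to 77.36) in code 017 and 66.29 (54.63 to 79.7) in code 019, above 27.07 (22.7 to 32.04) in code 018 and 26.28 (22.89 to 30.02) in code 072. Hoxd10 had 18 UMIs in code 019 (10.56 CPM) and 4 in code 017 (3.893 CPM), and 0 in the other 4 codes. Hoxa11 had 4 and 1 UMIs in the same 2 codes and 0 in the others. Codes 020 and 073 held too few such cells to place. In bulk RNA the same 2 genes were high in 1 group and listed at or near 0 in the other 5. Which genotype or time each code stands for could not be worked out from the names, so the 2 data sets were not matched.

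Cofactors and chromatin genes were read from the same classes. The 9 cofactors summed to 526 CPM in ependymal-like, 504.2 in OPC-like, 184.1 in oligodendrocyte-like and 81 in myeloid cells. Meis2 stood at 210.9, 162.6 and 49.19 CPM in the first 3 of these classes. Polycomb genes summed to 851.8, 1032, 906.5 and 342.9 CPM. Ezh2 was 18.68 CPM in ependymal-like, 94.25 in OPC-like and 66.05 in oligodendrocyte-like cells, and Cbx7 was 19.36, 4.712 and 6.324. Retinoic acid and Cdx genes summed to 247.7, 400.6 and 115.9 CPM. The antisense transcripts Hoxd3os1 (70.07 CPM in ependymal-like cells), Hoxb3os (29.99), Hoxb5os (17.52) and Hoxaas3 (8.85) overlap or neighbour Hox genes, and since the strand used in counting is not given in the sources used here, values of Hoxd3, Hoxd4, Hoxb3, Hoxb5 and their neighbours may include them.

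In the single-cell ATAC sample, Hox DNA was open in long stretches. The authors named 8 classes among 1084 cells, 3 of ependymal cells (EP1 to EP3), 2 of astrocytes (ACNT1 and ACNT2), OPC, PER and VEC. Against fixed marker lists, peaks at pericyte genes were 3.541 times the all-cell level in PER, those at endothelial genes 6.176 times in VEC, those at astrocyte genes 2.278 times in ACNT and those at OPC genes 2.651 times in OPC. Peaks at ependymal genes were 1.142 times the all-cell level in the pooled EP cells and 0.4888 times in ACNT. The 58 Hox peaks fell on HoxA (16), HoxB (11), HoxC (11) and HoxD (20), and Hoxc12 was the 1 gene of 39 with no peak. Cut sites are given on the same CPM scale. With 1 sample no test was possible.

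Hox peaks were wider than most. Their median width was 1508 bases against 587 over all peaks, and 13 of 58 (22.41%) were over 5 kb against 0.5845% of all. The widest, in HoxA (chr6:52199929-52223211 on mm10, as deposited), spanned 23282 bases with the starts of Hoxa3, Hoxa5, Hoxa6 and Hoxa7 inside it and ranked 2 among 96670 peaks. A HoxB peak of 22068 bases (chr11:96275408-96297476), with the Hoxb8 start, ranked 3, and a HoxC peak of 21488 bases (chr15:102994407-103015895) ranked 5. HoxD had no such peak, its widest being 6810 bases (chr2:74709693-74716503), rank 194. Peaks covered 57.57% of the HoxA span, 46.42% of HoxB, 44.81% of HoxC and 31.85% of HoxD. Of the 24 RefSeq starts 16 lay in a peak, and those outside were starts of Hoxa10 (upstream start), Hoxa11, Hoxa13, Hoxd4, Hoxd11 (both starts), Hoxd12 and Hoxd13.

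**Figure D4:**
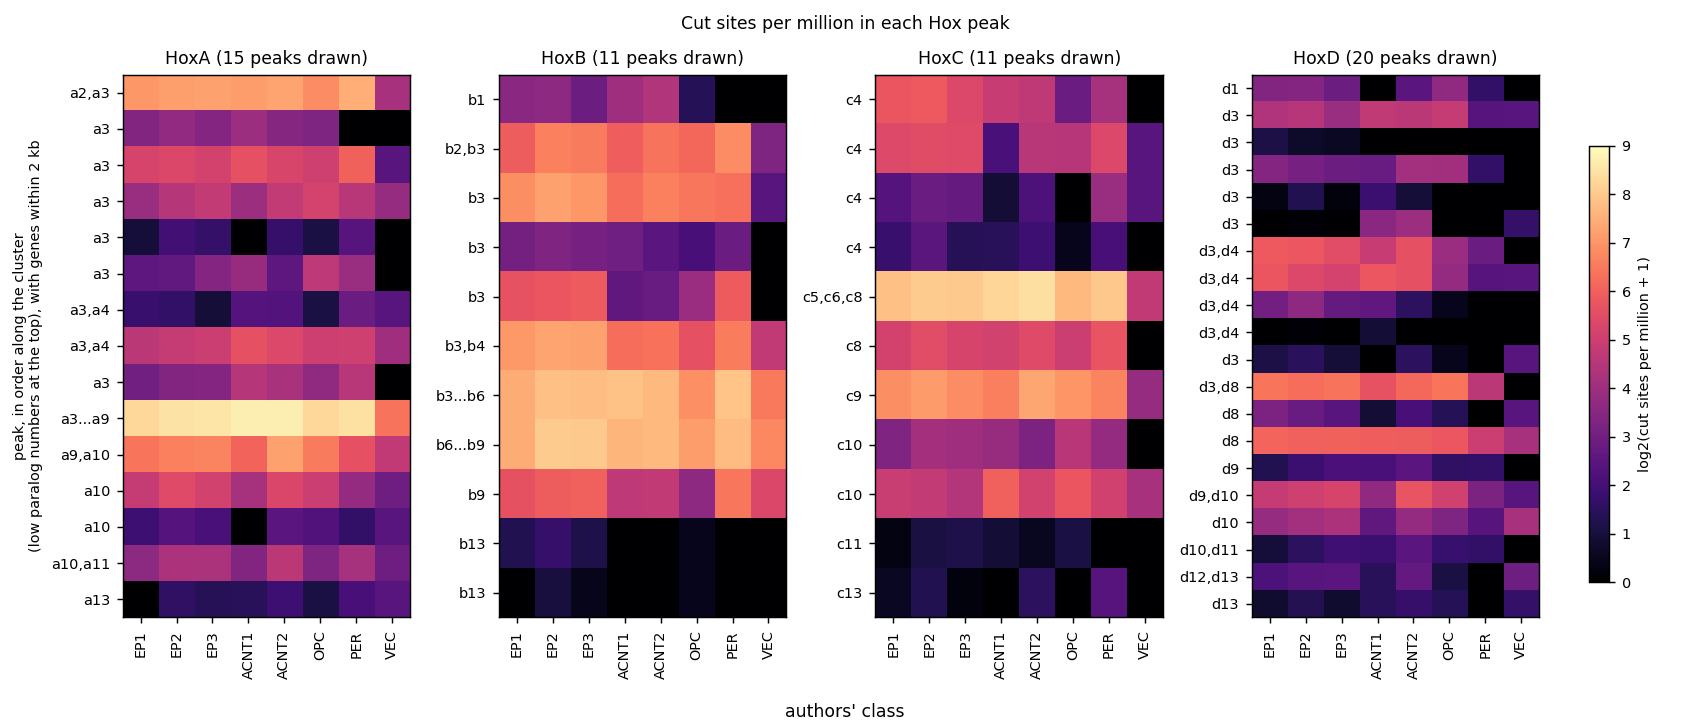
Accessibility of 57 Hox peaks (rows, with low paralog numbers at the top of each cluster) in the 8 classes of the ATAC sample, as log2(CPM + 1) of cut sites. Most peaks are shared by the EP, ACNT and OPC classes, VEC is low nearly throughout, and PER is low mainly over HoxD.

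Summed over all 58 peaks, accessibility varied little among EP and astrocyte classes and was lower in OPC and lowest in VEC. Relative to all cells it was 0.9062 in EP1, 1.082 in EP2, 1.036 in EP3, 0.9086 in ACNT1 and 1.049 in ACNT2. It was 0.7581 (0.7371 to 0.7796) in OPC, 0.8902 in PER and 0.2321 (0.2053 to 0.2615) in VEC. Median depth differed from 7249.5 cut sites per cell in VEC to 46787.5 in EP2. EP1 and ACNT1, with medians of 10137 and 10278 cut sites, moved above 1 when each peak was counted at most once per cell (1.123 and 1.25), and EP2 moved below it (0.9543). The order among EP and ACNT classes therefore depended on how cuts were counted, while VEC stayed lowest (0.4117) and OPC came next (0.8612).

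**Figure D5:**
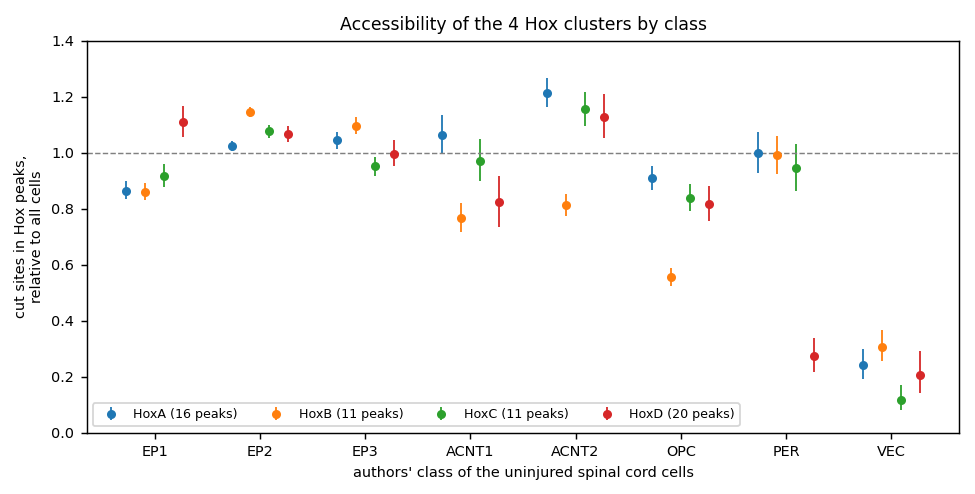
Summed accessibility of the HoxA, HoxB, HoxC and HoxD peaks in each of the 8 ATAC classes, relative to all cells (dashed line at 1), with exact Poisson intervals. Within OPC the lowest of the 4 clusters is HoxB at 0.5549, and PER is near 1 for HoxA, HoxB and HoxC but at 0.2727 for HoxD.

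OPC cells differed from EP cells most over HoxB. Their HoxB level relative to all cells was 0.5549 (0.5247 to 0.5864), against 0.9088 over HoxA, 0.8396 over HoxC and 0.8172 over HoxD. By the 2-fold rule, 13 of 40 counted Hox peaks were lower and 3 higher in OPC than in pooled EP cells (background 40.3% lower and 14.4% higher), so the Hox peaks as a whole stood near the background. Within HoxB 5 of 9 were lower, with a median log2 difference of -1.44. The peak over Hoxb9 (chr11:96269740-96273212) had 58.03 CPM in EP and 11.41 in OPC, that over Hoxb3 (chr11:96331668-96335307) had 53.53 and 14.16, and that over Hoxb3 and Hoxb4 (chr11:96317473-96331007) had 152.1 and 48. In RNA of the other data set, Hoxb was the cluster with the largest drop in CPM from ependymal-like to OPC-like cells. Those OPC-like cells came almost wholly from library codes that held few of the ependymal-like cells. Class and library cannot be told apart there, and the cluster sums are not given within a code. A peak just past the end of Hoxc4 (chr15:103037917-103041802) lay within 2 kb of it but overlapped no Hox gene. There EP had 52.16 and OPC 6.295, whereas at Hoxc10 (chr15:102966283-102968221) EP had 25.8 and OPC 52.72.

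PER cells kept HoxA, HoxB and HoxC near the all-cell level (0.998, 0.9911 and 0.945) but stood at 0.2727 (0.2178 to 0.3372) over HoxD. All 7 counted HoxD peaks were over 2-fold lower than in EP cells (median log2 difference -1.94) and 0 of 7 in HoxB were, within 11 of 30 over all clusters (background 40% lower). The Hoxb9 peak had 87.02 CPM in PER, above its 58.03 in EP, while a HoxD peak (chr2:74726220-74728677) had 4.245 against 41.19. In VEC 21 of 24 counted Hox peaks were lower (background 41%), with a median of -2.59 against -0.19 over all peaks. Astrocytes had 8 of 43 lower and 2 higher (background 39.1% and 12.8%), with a median of -0.08. Their clearest departures were the Hoxb3 peak (5.073 in ACNT1 and 5.905 in ACNT2 against 53.53) and a peak near Hoxd3 (chr2:74737666-74738089), at 10.99 and 14.53 in the 2 astrocyte classes against 1 cut site in all EP cells (0.0402).

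Of the posterior genes that varied in bulk RNA, Hoxd10 and Hoxd9 had start peaks with cut sites in uninjured EP cells. The downstream Hoxa10 start also lay in a peak (chr6:52231751-52235444), whose level is not given here. Hoxc10 had no entry in the promoter table, and the peak at that gene is given above. The Hoxa11 start and the upstream Hoxa10 start lay in no peak. No level was set above which DNA counts as open. The peak over the Hoxd10 start (chr2:74691329-74692646), which holds the sequence printed above, had 13.1, 16.1 and 18.98 CPM in EP1, EP2 and EP3, 8.656 in OPC and 17.52 in VEC, the last from 8 cut sites. The peak that holds the Hoxd9 start (chr2:74697077-74700317) had 32.31 in EP and 8.489 in PER. Over paralogs 10 to 13 together OPC stood at 1.008 of the all-cell level, ACNT2 at 1.318 and PER at 0.5769, while over paralogs 4 to 6 OPC stood at 0.6545. Paralogs 1 to 3 stood at 0.748 (0.7203 to 0.7765) and paralogs 7 to 9 at 0.8195 in OPC. The posterior genes did not move alike in OPC, with Hoxc10 at 1.688 (1.458 to 1.945) of the all-cell level, Hoxa10 at 0.8736 and Hoxa11 at 0.5182 (0.3247 to 0.7845).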

How the data were processed

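The members and the gene lists were chosen with earlier results of these data known. The authors deposited the bulk RNA signal as normalised counts per gene. How reads were counted and scaled is not given in the sources used here, so depth is unknown. Library values summed to between 12601290 and 13878102, with 14395 to 15379 genes above 0. The single-cell RNA counts (UMIs per gene and cell) and ATAC counts (cut sites per peak and cell) were deposited by the authors as filtered matrices. The genome build mm10 and the tools Bowtie2, Cell Ranger, Cell Ranger ATAC, deepTools and SAMtools come from the submitters' processing notes, which give no versions.

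For the bulk tests, limma 3.58.1 (R 4.3.3) was applied to log2(value + 1) (trended empirical Bayes, 1 fit of 12 libraries and 6 group means, 10 contrasts). The filter asked for 2 or more libraries at 10 or above, which kept 15811 of 16301 genes and left out 490. Calls needed an adjusted p (Benjamini-Hochberg over all genes tested) under 0.05. A fold change on this scale understates the change of low genes. Where groups are said not to overlap, this only describes the listed values, since the share of all genes without overlap was not counted. The scripts were tested on simulated data. Some genes are counted in the totals but are not reported here by name or drawn in the figures.

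For the single cells, scanpy 1.11.5 was used (2000 variable genes without Hox genes, 30 components, 15 neighbours, Leiden resolution 1, 15 clusters), and a cluster was named from markers detected in at least 25% of its cells, with at least 3 detected. Shares have Clopper-Pearson and levels exact Poisson intervals at the 95% level, which cover counting error only. A 2-fold difference was counted where at least 10 UMIs or cut sites were expected. Other tools were numpy 2.4.6, pandas 2.3.3, scipy 1.17.1 and matplotlib 3.10.9.

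Values in every bulk library are given for each member reported here that was called in any contrast and for the 6 members with most single-cell UMIs, and of the other lists at most 3 called genes per contrast are named. Hoxa2, Hoxb2, Hoxb6, Hoxb13, Hoxd11, Hoxa4, Hoxd1, Hoxd4 and the single peaks were named after their values were seen. Alternatives were quantile normalization, median-of-ratios factors, a pseudocount of 8, no filter, a replicate block, the near-identical control pair as 1 library, each library left out, other cluster resolutions and cell sets, and other peak windows and ways of counting cuts. Comparisons within a library code and with the unnamed ependymal clusters were chosen after seeing the data.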

Additional observations from a re-analysis of the deposited data

Results flagged for a closer look

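The interaction of injury and genotype passed the threshold for the 5 combinations of gene and time given here, by the term of the limma fit with Benjamini-Hochberg adjustment over all genes. At 1 dpi the adjusted p was 0.00926 for Hoxd10 and 0.0316 for Hoxa11. At 5 dpi it was 0.00654 for Hoxd10, 0.0163 for Hoxa11 and 0.0257 for Hoxc10. In these 3 genes both uninjured control libraries lay above every other control library, and both uninjured Olig2 libraries were at 0 or, for Hoxc10, at 1.1 and 0. Each of these interactions rests on the near-identical uninjured control pair, and Hoxd10 and Hoxa11 passed the filter on low values only through it. With that pair as 1 library Hoxd10 at 5 dpi was called and the other 4 were not. For Hoxd10 and Hoxa11 both genotypes lay at 0 to 1.9 outside the uninjured controls, so these 4 values restate the high control pair and do not show a difference in the response to injury. The cause was not tested.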

How the results depend on the processing

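Of 38 calls of a Hox gene in a contrast, 0 reversed in 18 other settings. Hoxa11 and Hoxd10 between uninjured genotypes and in control at 1 dpi and 5 dpi, and the Hoxd10 interaction at 5 dpi, stayed called in the 16 settings that tested them. The 2 that left out an uninjured control library could not test them, so their dependence on such a library was not tested. All 16 kept the high values of both uninjured control libraries, separately or averaged. Staying called there is therefore not taken as support. A pseudocount of 8, no filter and median-of-ratios factors kept all 38, quantile normalization 35, the replicate block 32 and the control pair as 1 library 16. With the pair as 1 library the number of Hox genes called became 0 (genotypes at 5 dpi), 0 (mean of times), 3 (control at 1 dpi), 2 (control at 5 dpi), 0 (Olig2 at 1 dpi), 0 (interaction at 1 dpi) and 1 (interaction at 5 dpi), with 8.18% to 11% of all genes called in the control injury contrasts against 23% to 27.4% before. Without 1 uninjured control library, Hoxd10 and Hoxa11 failed the filter and were not tested, and 8 of the other 26 calls were kept, whichever of the 2 was left out.

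With 1 library left out at a time, the number called ran from 0 to 4 (genotypes, uninjured), 0 to 0 (1 dpi), 0 to 2 (5 dpi), 0 to 4 (mean of times), 1 to 12 (control at 1 dpi), 0 to 7 (control at 5 dpi), 0 to 1 (Olig2 at 1 dpi), 2 to 9 (Olig2 at 5 dpi), 0 to 3 (interaction at 1 dpi) and 0 to 4 (interaction at 5 dpi). Where this left 1 library in a group, its spread was taken from the other groups. Hoxc10 between uninjured genotypes was called in 7 of 18 settings (adjusted p 0.0114 to 0.225), Hoxd8 at 5 dpi in 11 (0.0157 to 0.186) and Hoxd3 in the mean of times in 6 (0.0438 to 0.175). The cause was not tested.

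Same-numbered libraries showed no shared deviation over all genes. Over 15 pairs of groups, the correlations of same-numbered deviations lay between -0.0296 and 0.0222. The labels do not say what a replicate number stands for, so a shared animal or batch was not tested. With the replicate block, 1 gene was called in the mean of times and 1 in the interaction at 1 dpi, and other counts stayed within 1.5 times.

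In single-cell RNA, the summed ependymal-like level was 1377 CPM over all cells of the matrix and 1385 with the unnamed ependymal clusters, and the cycling level was 1093 at Leiden resolution 2 and 1147 as a mean over cells. Thinning moved the shares of cells with a Hox UMI to 92.55% (ependymal-like), 82.76% (OPC-like), 36.8% (oligodendrocyte-like) and 72.73% (cycling).

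In ATAC, counting each peak at most once per cell moved 31 of the values relative to all cells. Over all Hox peaks they became 1.25 (ACNT1), 1.081 (ACNT2), 1.123 (EP1), 0.9543 (EP2), 0.8612 (OPC), 0.9906 (PER) and 0.4117 (VEC). HoxA became 1.476 (ACNT1), 1.062 (EP1), 0.9103 (EP2), 0.9984 (OPC), 1.129 (PER) and 0.4219 (VEC), and HoxB 1.191 (ACNT1), 0.9688 (ACNT2), 1.187 (EP1), 0.9382 (EP2), 0.7316 (OPC), 1.18 (PER) and 0.5783 (VEC). HoxC became 1.289 (ACNT1), 1.018 (ACNT2), 1.142 (EP1), 0.9527 (EP2), 1.01 (EP3), 0.8954 (OPC), 1.185 (PER) and 0.2683 (VEC), and HoxD 0.9943 (ACNT1), 0.3456 (PER) and 0.3089 (VEC). With peaks over gene bodies only, HoxC in OPC was 0.901. HoxB in OPC, HoxD in PER and VEC over all clusters kept their direction. Depth differed between classes, and OPC-like cells number only 59.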

Other observations

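Some Hox values belonged to no comparison above. In 30 cells with fibroblast markers, found by clustering all cells of the matrix, the summed Hox level was 390.8 CPM (341.1 to 445.8), and Hoxb2 stood at 169 CPM (96 UMIs) against 56.85 in ependymal-like cells. Hoxc10 stood at 27.36 CPM in cycling cells and 30.63 in OPC-like cells (13 UMIs) against 7.437 in ependymal-like cells. Among ependymal-like cells of the 4 library codes with at least 306 of them, Hoxb8 ran from 109.1 CPM in code 019 to 196.6 in code 017, while Hoxd9 ran from 10.1 CPM in code 072 to 24.64 in code 019. No test was possible for these values.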
